A study of Mus musculus with 9 samples.

Results

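Homologous recombination copies an intact DNA sequence to mend a break, and the Fanconi anemia pathway frees replication forks stopped by crosslinks between DNA strands. These genes were followed in a mouse leukemia line (T cell acute lymphoblastic leukemia, T-ALL) as its MYC oncogene was turned down. The list held 46 named genes of homologous recombination, the Fanconi pathway and the DNA damage checkpoint, listed by name with no threshold on a measured value, of 53380 rows in each table. All 46 were found by symbol, and all 46 passed the count filter that left 14098 genes to test.

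The cells came from tumors of FVB/N mice that carry EμSRα-tTA and tet-O-MYC, so every library shared both transgenes, and doxycycline stops tTA, a transactivator driven in lymphoid cells by EμSRα, from switching on human MYC. MYC on cells were mock treated, MYC intermediate cells received 20 pg/mL of doxycycline and MYC off cells 500 pg/mL, all were collected at 48 hours, and each group has 3 libraries. There was 1 cell line and no library had doxycycline without the transgene, so effects of the drug and of MYC cannot be told apart. Nothing in the labels ties replicates to separate cultures, so the p-values measure the spread between libraries alone. The human MYC transcript averaged 3.72 ± 0.492 normalised counts (CPM) in MYC off, against 1268 ± 89.4 in MYC on (SD, n = 3 each), with 385 to 438 CPM in the MYC intermediate libraries.

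Libraries held 18705516 to 39678799 counts. CPM are counts scaled to 1 common library total after TMM scaling, a correction for differences in RNA composition. A rise or fall is thus in a gene's share of the library and not in its amount per cell. All 16 T cell markers were measured and rose in MYC off, for example the T cell receptor chain Trac by 2.54 ± 0.068 on the log2 scale (SE). B cell markers summed to at most 0.246 CPM in MYC off and 0.265 CPM in MYC on, and Cd79b, Ms4a1 and Pax5 had 0 counts. Myeloid markers summed to 39.9 to 42.9 CPM in MYC off, against 27.3 to 31.7 CPM in MYC on, with Lyz2, Cd14, Adgre1, S100a8 and S100a9 at 0. Of the myeloid markers detected, Itgam rose, with means of 21.8 CPM in MYC off and 3.90 CPM in MYC on (log2 fold change 2.46 ± 0.13), and Csf1r fell by 0.38, with means of 19.2 CPM in MYC off and 24.9 CPM in MYC on. Among other blood lineages, 4 of 8 erythroid and platelet markers were at 0. Stromal and endothelial markers summed to 205.3 to 221.3 CPM in MYC off and 90.7 to 95.4 CPM in MYC on, most of it Pecam1, with Col3a1, Cdh5 and Kdr at 0. The part of these markers in the results was not tested. In bulk RNA, fewer cells of a type and less RNA per cell cannot be told apart.

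In recombination, nucleases trim the ends of a break to single strands, and BRCA proteins and strand exchange factors then help the trimmed end pair with an intact copy. In the Fanconi pathway, a core complex of many proteins attaches ubiquitin to FANCD2 and FANCI. The kinases ATM and ATR sense breaks and stalled forks, and through CHK2, CHK1 and WEE1 they hold back the cell cycle. Dividing T cell leukemia cells rely on these pathways while they copy their DNA.

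The promoters of these genes were read for letters that MYC and cell cycle factors are known to bind. RefSeq windows of 250 bases before to 50 bases after a start (GRCm38.p6) were matched for 34 of the 46 genes and gave 39 windows, since Rad1, Rad51b, Rad51c, Rad54l and Rmi1 have several starts. The E-box CACGTG, the motif of MYC, was in 3 of 39 windows (7.69%), against 7.15% of all 32851 windows and 10% of windows of tested genes. An E2F motif (TTTCCCGC, TTTCGCGC, TTTGCCGC or TTTGGCGC) was in 8 of 39 windows (20.5%), against 2.26% of all windows and 4% of those of tested genes. The cell cycle homology motif TTTGAA was in 7.69% of the windows, against 17.9% and 12.2%. Both strands were searched, no motif contains another, and a match describes letters and not binding.

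The windows below are shown because they belong to genes whose RNA differed between MYC off and MYC on and hold one of the motifs. Both Rad51c starts, the second of which is the gene's outer end in the annotation, hold an E2F motif, as does Fancg. Eme1 holds an E-box and, on the other strand, TTTGAA, and the inner of the Rad51b starts holds TTTGAA. Slx4 holds an E-box, in a window inside the annotated gene (chr16:3979105-4003770) and away from its outer end. All but Rad51b are on the minus strand, and all are written 5′ to 3′, and have the motifs in capitals, as their reverse complement where the match was on the other strand.
Rad51c, inner start, chr11:87404457-87404756: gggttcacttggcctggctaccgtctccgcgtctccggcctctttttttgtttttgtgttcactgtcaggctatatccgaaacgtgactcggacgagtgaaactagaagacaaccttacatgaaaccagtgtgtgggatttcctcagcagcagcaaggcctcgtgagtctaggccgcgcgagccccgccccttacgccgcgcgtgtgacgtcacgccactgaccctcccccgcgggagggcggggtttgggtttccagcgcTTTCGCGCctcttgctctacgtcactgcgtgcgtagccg
Rad51c, outer start, chr11:87404905-87405204: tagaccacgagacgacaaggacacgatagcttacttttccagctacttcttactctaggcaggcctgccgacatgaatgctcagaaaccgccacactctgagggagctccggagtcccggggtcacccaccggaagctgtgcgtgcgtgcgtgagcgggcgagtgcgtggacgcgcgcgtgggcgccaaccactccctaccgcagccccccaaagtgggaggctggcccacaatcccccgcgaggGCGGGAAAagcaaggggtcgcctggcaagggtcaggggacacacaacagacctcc
Fancg, chr4:43010252-43010551: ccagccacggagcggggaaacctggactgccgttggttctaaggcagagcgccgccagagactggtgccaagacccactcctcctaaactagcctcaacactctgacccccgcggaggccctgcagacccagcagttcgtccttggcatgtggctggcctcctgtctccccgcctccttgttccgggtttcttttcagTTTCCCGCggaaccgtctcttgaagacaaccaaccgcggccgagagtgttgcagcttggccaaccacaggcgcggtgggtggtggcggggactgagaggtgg
Eme1, chr11:94653694-94653993: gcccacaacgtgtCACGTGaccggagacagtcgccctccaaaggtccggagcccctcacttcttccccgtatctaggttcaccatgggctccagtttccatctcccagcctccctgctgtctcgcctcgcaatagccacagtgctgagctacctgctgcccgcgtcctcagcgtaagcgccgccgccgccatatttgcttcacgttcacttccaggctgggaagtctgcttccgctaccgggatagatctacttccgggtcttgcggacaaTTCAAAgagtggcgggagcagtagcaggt
Slx4, chr16:4001629-4001928: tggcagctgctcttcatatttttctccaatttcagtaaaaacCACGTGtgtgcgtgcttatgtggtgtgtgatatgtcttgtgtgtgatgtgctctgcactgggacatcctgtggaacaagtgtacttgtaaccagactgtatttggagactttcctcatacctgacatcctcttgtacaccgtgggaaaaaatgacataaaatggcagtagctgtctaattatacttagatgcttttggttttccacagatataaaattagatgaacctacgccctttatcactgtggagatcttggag
Rad51b, inner start, chr12:79297101-79297400: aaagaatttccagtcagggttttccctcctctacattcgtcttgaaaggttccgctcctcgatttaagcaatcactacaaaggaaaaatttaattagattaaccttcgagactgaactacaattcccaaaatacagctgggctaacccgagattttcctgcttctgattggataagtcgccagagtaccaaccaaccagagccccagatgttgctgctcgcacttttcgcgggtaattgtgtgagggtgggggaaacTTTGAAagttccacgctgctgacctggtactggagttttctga
Windows with an E2F motif belonged to Bard1, Chek2, Brca2, Topbp1 and Rmi1 as well as to Rad51c and Fancg. By window, the motif was in 3 of 10 from genes called higher in MYC off (both of Rad51c among them), in 0 of 12 from genes called lower, and in 5 of 17 from genes not called. E-boxes were in the windows of Slx4, Eme1 and Rmi1.

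The complete loss of MYC was examined first. Between MYC off and MYC on, 10 of the 46 genes were higher and 12 were lower at an adjusted p under 0.01 (edgeR's quasi-likelihood test with Benjamini-Hochberg adjustment, used for every adjusted p here). Among all genes tested, 27.5% were called higher and 27.4% lower, so the 46 genes were called at about the background share in both directions. Their summed level was 3611 to 3681 CPM in MYC off and 3551 to 3634 CPM in MYC on, ranges that overlap. The median log2 fold change was -0.03, against 0.03 over all genes tested, and the median size of the change was 0.22, against 0.46. Sizes given after "rose by" or "fell by" are on the log2 scale throughout. Only Rad51c of the 46 was called with a change above 1 on the log2 scale, which 19.5% of all genes tested reached. The genes tested included many with fewer counts than most of the 46, and sizes were not compared at matched counts. The plot of the 46 fold changes by role shows the genes moving in both directions within the strand exchange, core complex and junction groups.

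**Figure D1:**
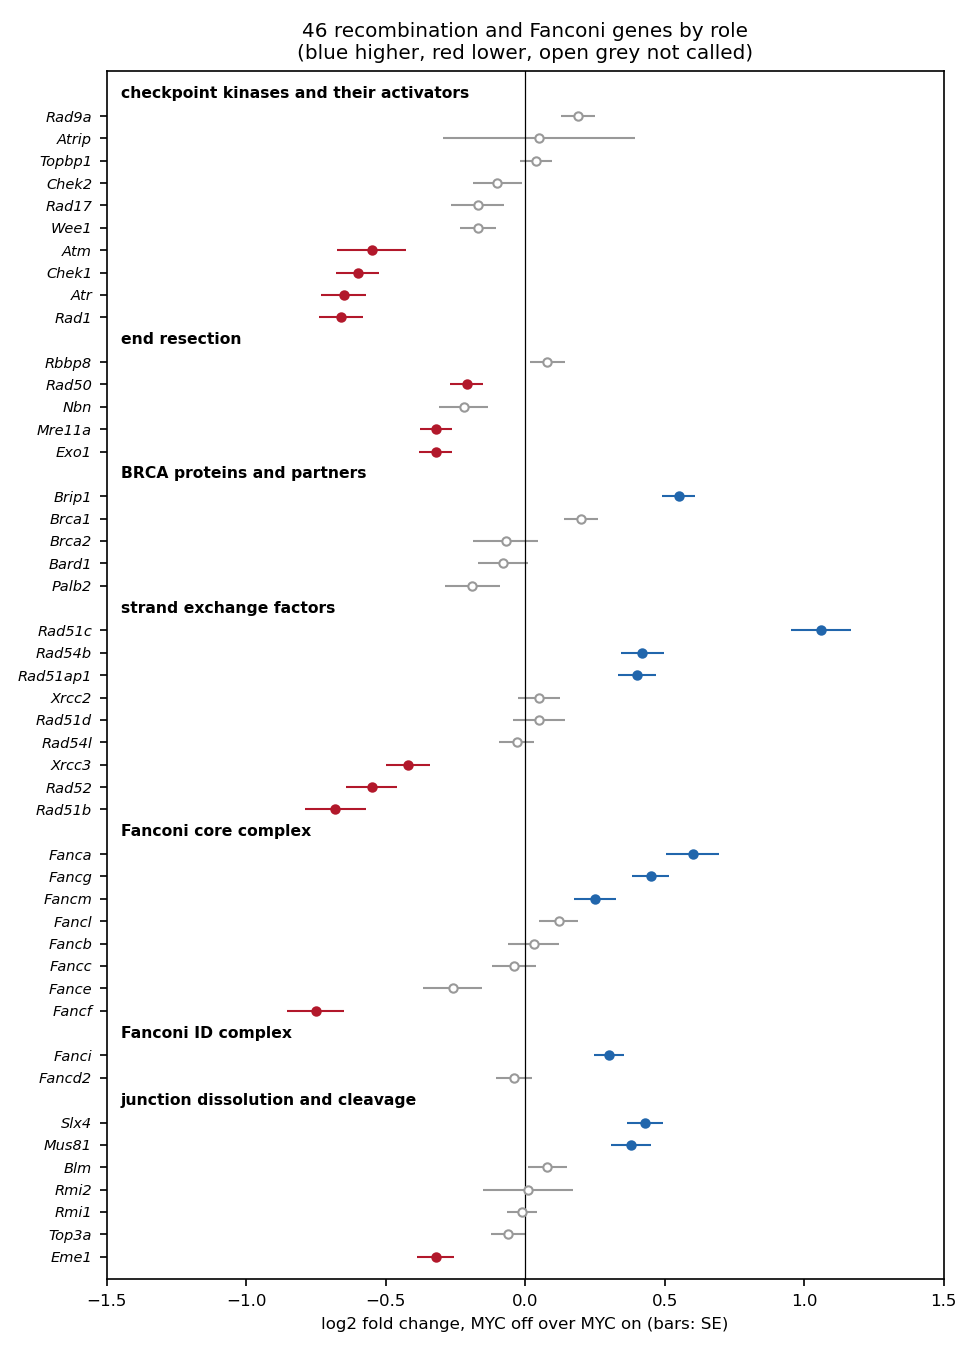
Log2 fold change of each of the 46 genes, MYC off over MYC on (x axis; bars are SE, n = 3 libraries per group), grouped by role. Blue genes were called higher (10), red genes lower (12) and open grey genes were not called (24); Rad51c is farthest right at 1.06 and Fancf farthest left at -0.75.

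The checkpoint genes held 4 that fell and none that rose among 10. Here and for each role below, the counts stand beside 27.5% of all genes tested called higher and 27.4% lower. Each role holds few genes, and none was tested against these shares. Rad1, a part of the ring-shaped 9-1-1 clamp that marks damaged DNA, had 35.4, 33.3 and 36.0 CPM in MYC off, against 58.2, 57.4 and 50 CPM in MYC on (log2 fold change -0.66 ± 0.079, adjusted p = 2.54e-06). Atr, the kinase of stalled forks, had 45.9, 45.2 and 54.0 CPM in MYC off, against 71.8, 81.5 and 74.9 CPM in MYC on (-0.65 ± 0.081, adjusted p = 3.74e-06). The groups did not overlap for either gene. Here and below, such separation describes the same libraries as the test and is not separate support. How many of all genes tested separated was not counted. Chek1, which encodes the kinase that ATR activates, had 39.0, 38.1 and 37.5 CPM in MYC off, against 59.1, 62.1 and 52.8 CPM in MYC on (-0.60 ± 0.077, adjusted p = 5.08e-06). Atm, the kinase of double-strand breaks, had 31.9, 30.9 and 35.7 CPM in MYC off, against 40.2, 53.0 and 50.4 CPM in MYC on (-0.55 ± 0.124, adjusted p = 0.00119). Its MYC on libraries were the most scattered of these 4 genes, and the lowest of them still lay above each MYC off library.

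The other 6 checkpoint genes were not called. Wee1, a kinase that blocks entry into mitosis, had a log2 fold change of -0.17 ± 0.065. Rad17, which loads the 9-1-1 clamp, had -0.17 ± 0.095, and the ATM target Chek2 had -0.10 ± 0.087. Topbp1, an activator of ATR, had 0.04 ± 0.057 at 362.6 CPM in MYC off and 351.8 CPM in MYC on, the highest counts of the 46 genes. Rad9a, the partner of Rad1 in the clamp, had 0.19 ± 0.061 and an adjusted p of 0.0121, and it was called without MYC intermediate replicate 1 or 3 (0.17 to 0.22 over the alternatives that called it). Atrip, the obligate partner of ATR, was barely detected, with 0.710, 1.19 and 0.738 CPM in MYC off and 0.499, 0.795 and 1.14 CPM in MYC on. Atrip shared 16% of its exonic bases with Trex1 on the same strand, where reads cannot be assigned to 1 gene. Rad9a shared 9.53% of its exonic bases with Ppp1ca (0.28 ± 0.056). Hus1, the remaining subunit of the 9-1-1 clamp, is outside the 46 genes and was picked after its values were seen. It had 28.0, 27.7 and 25 CPM in MYC off, against 45.3, 47.7 and 45.6 CPM in MYC on (-0.78 ± 0.087, adjusted p = 1.18e-06). Of the clamp genes, Rad1 and Hus1 fell and Rad9a was not called.

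Of 5 end resection genes, 3 fell, all by less than the checkpoint genes above. Mre11a, the nuclease of the MRE11-RAD50-NBN complex, had 70.8, 74.2 and 73.4 CPM in MYC off, against 94.3, 89.8 and 88.1 CPM in MYC on (-0.32 ± 0.058, adjusted p = 0.000183). Exo1, which extends the trimming, had 156, 165 and 160 CPM in MYC off, against 214, 196 and 191 CPM in MYC on (-0.32 ± 0.059, adjusted p = 0.000202). For both genes each MYC off library lay under each MYC on library. Rad50, which bridges the ends, had 120, 119 and 111 CPM in MYC off, against 143, 134 and 129 CPM in MYC on (-0.21 ± 0.059, adjusted p = 0.00489). The Rad50 call was lost without MYC on replicate 1 or 2 or MYC off replicate 2 or 3, and its log2 fold change ran from -0.23 to -0.17 over the alternatives that lost it. Nbn, the third gene of that complex, had -0.22 ± 0.088 and Rbbp8, which encodes the nuclease cofactor CtIP, had 0.08 ± 0.063, and neither was called.

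Among the BRCA genes only Brip1, a helicase that binds BRCA1, was called. It had 105, 104 and 99.4 CPM in MYC off, against 70.2, 72.9 and 68.8 CPM in MYC on (0.55 ± 0.059, adjusted p = 8.53e-07). Brca1 had 155, 150 and 169 CPM in MYC off, against 129, 143 and 142 CPM in MYC on (0.20 ± 0.062, adjusted p = 0.0105). Its groups did not overlap, it missed the threshold narrowly, and with the replicate numbers as a block it passed it (adjusted p = 0.0096). It was called as well without MYC intermediate replicate 1 or without MYC off replicate 2. Bard1, the ubiquitin ligase partner of BRCA1, had -0.08 ± 0.089, Brca2, which acts at the trimmed single strands, had -0.07 ± 0.117, and Palb2, which joins BRCA1 to BRCA2, had -0.19 ± 0.099.

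The strand exchange factors split, with 3 higher, 3 lower and 3 not called of 9. Rad51c (chr11:87376645-87404954, minus strand), whose protein joins a complex with RAD51B and another with XRCC3, had 28.6, 24.6 and 26.1 CPM in MYC off, against 13.3, 11.1 and 13.5 CPM in MYC on. This was a fold change of 2.09, or 1.06 ± 0.107 on the log2 scale (adjusted p = 3.52e-07), and the lowest MYC off library lay above the highest MYC on library. Rad54b, a DNA motor protein, averaged 64.6 ± 5.12 CPM in MYC off and 48.3 ± 3.15 CPM in MYC on (SD, n = 3 each), a log2 fold change of 0.42. Rad51ap1, which stimulates strand exchange, averaged 112.6 ± 4.50 CPM in MYC off and 85.2 ± 4.46 CPM in MYC on (SD, n = 3 each), a log2 fold change of 0.40. Rad54b shared 35.9% of its exonic bases with other genes, of which Fsbp (0.36 ± 0.153) was not called.

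Rad51b (chr12:79297282-79814690, plus strand), which pairs with RAD51C in the first of these complexes, went the other way. It had 7.15, 7.96 and 7.17 CPM in MYC off, against 12.8, 11.0 and 11.8 CPM in MYC on (-0.68 ± 0.108, adjusted p = 4.73e-05). Rad52, a single-strand annealing protein, had 18.0, 18.0 and 15.6 CPM in MYC off, against 26.0, 25.1 and 24.6 CPM in MYC on (-0.55 ± 0.091, adjusted p = 7.11e-05). Xrcc3, the partner of RAD51C in the second complex, had 44.7, 42.7 and 46.7 CPM in MYC off, against 57.2, 58.1 and 64.2 CPM in MYC on (-0.42 ± 0.078, adjusted p = 0.000211). None of the 3 had overlapping groups. Rad51d (0.05 ± 0.093) and Xrcc2 (0.05 ± 0.076) and the motor protein Rad54l (-0.03 ± 0.063) were not called.

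The Fanconi core complex held 3 genes that rose and 1 that fell among 8. Fanca (chr8:123268300-123318576, minus strand) had 101, 116 and 124 CPM in MYC off, against 69.8, 83.0 and 71.5 CPM in MYC on (0.60 ± 0.096, adjusted p = 4.58e-05). Fancg, its direct partner, had 81.1, 88.1 and 88.6 CPM in MYC off, against 63.7, 61.8 and 62.5 CPM in MYC on (0.45 ± 0.067, adjusted p = 2.30e-05). In both genes the MYC off libraries were all above the MYC on libraries. Fancm, a motor protein that recruits the complex to DNA, had 48.9, 57.8 and 55.3 CPM in MYC off, against 42.9, 47.7 and 45.8 CPM in MYC on (0.25 ± 0.076, adjusted p = 0.00965). The Fancm call was lost without any 1 of the MYC on libraries, without MYC intermediate replicate 2 and without MYC off replicate 2 or 3, with log2 fold changes from 0.19 to 0.28. Fancf, an adaptor of the core complex (chr7:51860577-51862267, minus strand), had 13.7, 12 and 12.8 CPM in MYC off, against 21.1, 19.3 and 24.0 CPM in MYC on (-0.75 ± 0.102, adjusted p = 1.09e-05). It fell further than any other of the 46 genes.

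The remaining core genes were not called. Fancl, the ubiquitin ligase of the complex, had 0.12 ± 0.069 and Fancb, which joins it in a subcomplex, had 0.03 ± 0.090. Fancc had -0.04 ± 0.079 and its partner Fance had -0.26 ± 0.105, the most negative value among genes not called. Fancf shared 15% of its exonic bases with Gas2, which fell by 0.47 on the log2 scale, and Fanca shared 10.5% with Zfp276, which rose by 0.48. Of the ID complex, the target of the core complex, Fanci had 206, 213 and 220 CPM in MYC off, against 179, 172 and 169 CPM in MYC on (0.30 ± 0.053, adjusted p = 0.000153). Fancd2, its partner, had 90.6, 94.4 and 95.9 CPM in MYC off and 90.8, 99.3 and 98.5 CPM in MYC on, with overlapping groups (-0.04 ± 0.063). Fanci shared 16% of its exonic bases with Polg, which rose by 0.47.

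Among 7 genes that resolve joined DNA molecules, 2 rose and 1 fell. Slx4, a scaffold that holds several nucleases, had 72.2, 79.4 and 81.7 CPM in MYC off, against 57.0, 57.6 and 58.6 CPM in MYC on (0.43 ± 0.064, adjusted p = 2.78e-05). Mus81, a nuclease subunit, had 80.2, 78.8 and 82.2 CPM in MYC off, against 57.7, 66.0 and 61.5 CPM in MYC on (0.38 ± 0.071, adjusted p = 0.000207). Eme1, a partner that MUS81 needs for cutting, had 99.6, 87.3 and 95.4 CPM in MYC off, against 120, 111 and 121 CPM in MYC on (-0.32 ± 0.066, adjusted p = 0.000594). Mus81 and Eme1 moved in opposite directions, each without overlap between groups. Eme2, the alternative partner of MUS81, is outside the 46 genes and was picked after its values were seen. It had 125, 122 and 129 CPM in MYC off, against 73.5, 78.4 and 84.4 CPM in MYC on (0.67 ± 0.074, adjusted p = 1.06e-06), the direction of Mus81. Eme1 shared 10.7% of its exonic bases with its neighbors, of which Lrrc59 fell by 1.15 and Mrpl27 (-0.07 ± 0.075) was not called. The dissolution complex that undoes double Holliday junctions had no call, with Blm at 0.08 ± 0.069, Top3a at -0.06 ± 0.061, Rmi1 at -0.01 ± 0.054 and Rmi2 at 0.01 ± 0.162.

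In all, 23 of the 46 genes shared some exonic bases with another gene in the annotation and 9 shared over 10%. The library kit does not mark the strand, so reads from such overlaps cannot be assigned, and their part in the results was not tested.

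**Figure D2:**
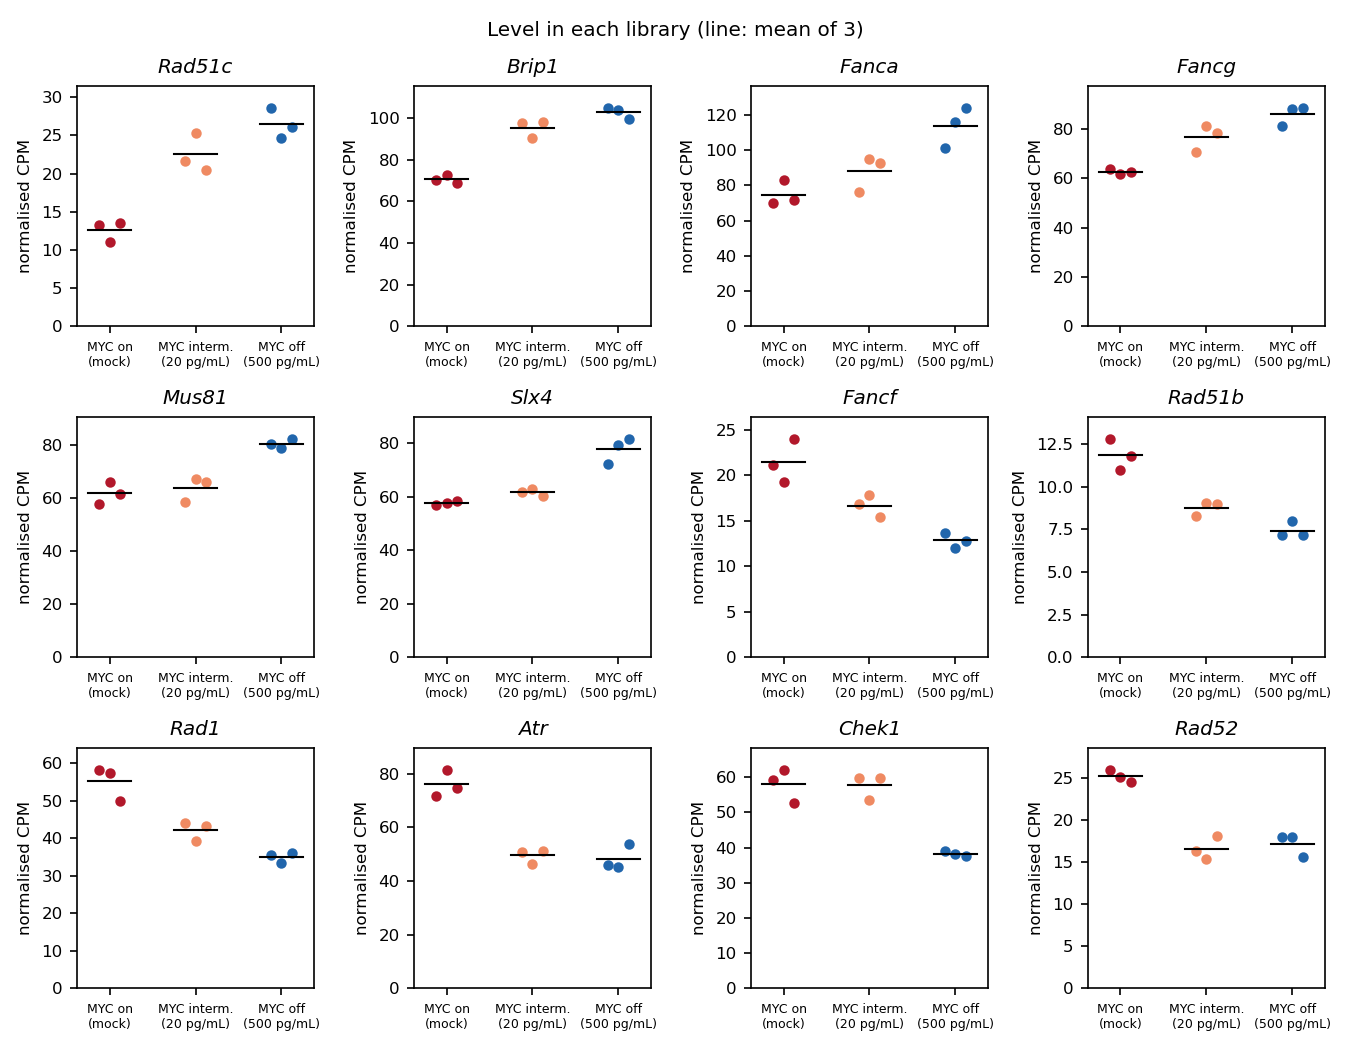
Normalised CPM (y axis, from 0) in each of the 9 libraries for 12 of the genes, with MYC on, MYC intermediate and MYC off from left to right, points for libraries and a line for the mean of 3. Rad51c MYC off libraries lie between 24.6 and 28.6 CPM, Chek1 is lower in MYC off alone (37.5 to 39.0 CPM), and Atr and Rad52 are as low in MYC intermediate as in MYC off.

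The middle dose was used to ask how much of each change was present after partial loss of MYC. These comparisons share libraries with the one above, so the values are given side by side. Between MYC intermediate and MYC on, 8 of the 46 genes were higher and 7 lower, against 17.4% and 17.2% of all genes tested, with a median log2 fold change of 0.05 against 0.01. Between MYC off and MYC intermediate, 3 were higher and 5 lower, against 9.95% and 14.7% of all genes tested, with a median of -0.06 against 0.01. The count of 7 lower genes was 5 or under without any 1 library, with 4 without MYC on replicate 1, MYC intermediate replicate 1, or MYC off replicate 2 or 3, and 3 without MYC on replicate 3, which also left 5 of the 8 higher genes. The count of 5 lower between MYC off and MYC intermediate was 2 without MYC intermediate replicate 1 or MYC off replicate 2 or 3.

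Rad51c, Brip1, Atr and Rad52 had most of their change at the middle dose. Rad51c had 21.7, 25.3 and 20.5 CPM in MYC intermediate, a log2 fold change of 0.83 ± 0.108 over MYC on and of 0.23 ± 0.101 for MYC off over MYC intermediate. Brip1 had 97.5, 90.4 and 98.4 CPM in MYC intermediate (0.43 ± 0.060 over MYC on, with 0.11 ± 0.058 for the second step). In both genes all MYC intermediate libraries lay above all MYC on libraries. Atr had 50.9, 46.5 and 51.3 CPM in MYC intermediate (-0.62 ± 0.081 over MYC on, with -0.03 ± 0.081 for the second step). Rad52 had 16.3, 15.4 and 18.1 CPM in MYC intermediate (-0.61 ± 0.092, then 0.06 ± 0.092). Both overlapped their MYC off libraries.

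Chek1, Exo1, Mus81 and Slx4 showed the other pattern. Chek1 had 59.9, 53.4 and 59.7 CPM in MYC intermediate, inside the spread of MYC on (-0.01 ± 0.076), and fell by 0.60 ± 0.076 in MYC off against MYC intermediate (adjusted p = 2.07e-05). Exo1 had 191, 196 and 212 CPM in MYC intermediate, and its log2 fold change was -0.32 ± 0.059 for the second step. Mus81 had 58.5, 67.1 and 65.8 CPM in MYC intermediate (0.05 ± 0.071 over MYC on), then 0.33 ± 0.070 for MYC off over MYC intermediate. Slx4 had 61.8, 63.0 and 60.2 CPM in MYC intermediate (0.09 ± 0.065 over MYC on), then 0.33 ± 0.064. For these 4 genes the second step was called under all 16 alternative settings, while a first step that was not called does not show that it was absent.

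Several genes lay in between. Fancf had 16.8, 17.8 and 15.4 CPM in MYC intermediate and fell by 0.37 ± 0.102 in each step, the 1 gene of the 46 called in both. Rad51b had 8.27, 9.04 and 8.97 CPM (-0.44 ± 0.107 over MYC on) and Rad1 had 44.0, 39.2 and 43.2 CPM (-0.39 ± 0.079 over MYC on). Fanca had 76.3, 94.8 and 92.7 CPM in MYC intermediate, which overlapped MYC on, with 0.23 ± 0.096 over MYC on and a called rise of 0.37 ± 0.094 in MYC off over MYC intermediate. With the replicate block the first step of Fanca was called too (adjusted p = 0.00912). Atm had 42.9, 38.6 and 29.9 CPM in MYC intermediate, which overlapped both other groups, and it was called in neither step, although the first step was called without MYC on replicate 1 or MYC intermediate replicate 1 (-0.48 to -0.36). Both Fancf calls depended on single libraries, and the second also on the scaling, lost with RLE size factors or library size alone. The first was lost without replicate 1 or 3 of MYC on or of MYC intermediate or without MYC off replicate 2 or 3 (-0.38 to -0.28), and the second without replicate 1 of MYC on, replicate 1 or 2 of MYC intermediate or replicate 2 or 3 of MYC off (-0.38 to -0.32). The first step of Rad51b was lost without MYC on replicate 1 or 3 or MYC intermediate replicate 1 (-0.44 to -0.38), and the second step of Fanca without MYC intermediate replicate 1 or MYC off replicate 2 or 3 (0.27 to 0.36).

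The rest of the first-step calls were smaller. Rad51ap1 had 0.32 ± 0.068 over MYC on, Rad54b 0.30 ± 0.078, Fancg 0.29 ± 0.067, Fancm 0.27 ± 0.076 and Fanci 0.25 ± 0.053, while Xrcc3 had -0.28 ± 0.078 and Mre11a -0.21 ± 0.058. Fancl was called in this step and not in the other comparisons, with 105, 95.1 and 107 CPM in MYC intermediate, against 85.0, 83.7 and 79.0 CPM in MYC on (0.31 ± 0.069, adjusted p = 0.00179). Its MYC off libraries, at 97.3, 86.9 and 84.4 CPM, overlapped MYC intermediate. Wee1 and Nbn were called only in the second step, with -0.26 ± 0.064 and -0.36 ± 0.087 for MYC off against MYC intermediate. Atrip had 0.318, 0.336 and 0.491 CPM in MYC intermediate, -1.12 ± 0.392 against MYC on and 1.18 ± 0.373 for MYC off over MYC intermediate, neither of which was called at this depth. Most of these smaller calls were lost when 1 library was left out. This held for Mre11a with any of the 9 libraries (-0.23 to -0.18), for Xrcc3 with any but MYC intermediate replicate 3 (-0.32 to -0.22), and for Fancm with any MYC on or MYC intermediate library or MYC off replicate 3 (0.23 to 0.30). It held for Rad54b with MYC on replicate 1 or 3 or MYC intermediate replicate 2 or 3 (0.26 to 0.29), for Fancg with replicate 2 of MYC on or of MYC intermediate (0.24 to 0.28), and for Fancl with MYC on replicate 3 (0.28). Wee1 (-0.27 to -0.22) and Nbn (-0.38 to -0.28) each lost theirs without MYC intermediate replicate 1 or 3 or MYC off replicate 2 or 3.

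Where MYC intermediate sat was expressed as the share of the off-minus-on log2 change already present at the middle dose, for genes called with a change above 0.5. Such a share is 0 at the level of MYC on cells and 1 at that of MYC off cells. Chek1 sat at 0.01, Fanca at 0.39, Fancf at 0.50, Rad1 at 0.59, Rad51b at 0.65, Atm at 0.67, Rad51c at 0.78, Brip1 at 0.80, Atr at 0.95 and Rad52 at 1.1. The human MYC transcript itself sat at 0.19 on this log2 scale. It had 1181 to 1360 CPM in MYC on, 385.5 to 438.5 CPM in MYC intermediate and 3.17 to 4.11 CPM in MYC off. Because its MYC off level was so low, the log2 share understates how far its CPM had fallen at the middle dose. When MYC intermediate was tested against the midpoint of the other groups, none of the 46 genes passed. Of all genes tested, 1.7% were higher and 0.184% lower. An unadjusted p under 0.05 in edgeR was reached by 17 of the 46 and by 2878 of all 14098 genes. DESeq2 called 4 of the 46 in that test (Chek1 and Fancl higher, Atr and Rad52 lower), against 389 higher and 99 lower of all genes. It put 14 of the 46 at an unadjusted p under 0.05, a count not taken over all genes. In edgeR Chek1 stood 0.30 ± 0.065 above the midpoint (adjusted p = 0.0157), Fancl 0.25 ± 0.059 above (adjusted p = 0.0235), Atr -0.29 ± 0.071 and Rad52 -0.33 ± 0.080 from it (adjusted p = 0.027 for both).

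**Figure D3:**
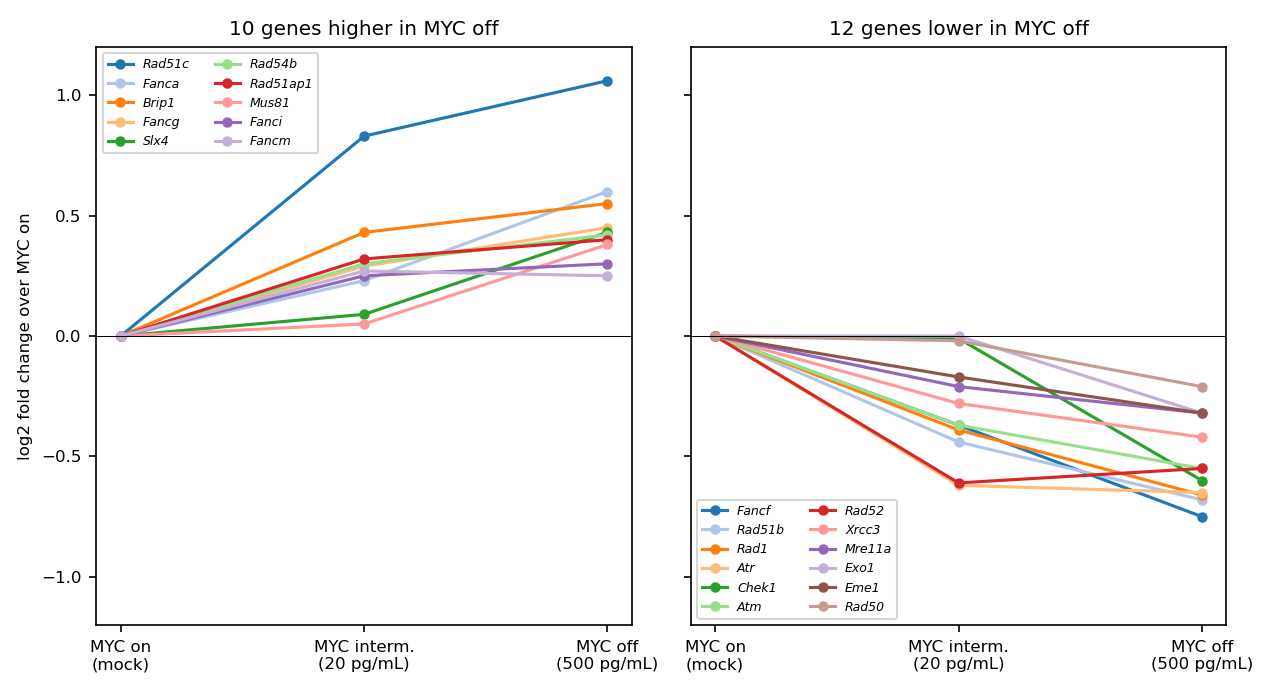
Log2 fold change over MYC on (y axis) at MYC on, MYC intermediate and MYC off (x axis), with the 10 genes higher in MYC off on the left and the 12 lower on the right, each line a gene. Rad51c reaches 0.83 at the middle dose and 1.06 in MYC off, while Chek1 stays at -0.01 at the middle dose and is at -0.60 in MYC off.

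Since many of these proteins work as pairs, the ratio of partner genes was taken in each library from TPM, deposited values that scale counts by gene length and then to 1 common total. The 15 pairs were chosen with the fold changes known, and with 3 against 3 libraries the exact two-sided permutation test cannot go below p = 0.1, which is 0.3 after Benjamini-Hochberg adjustment over the pairs. The TPM ratio of Rad51c to Rad51b was 3.42, 2.65 and 3.12 in MYC off, against 0.887, 0.869 and 0.979 in MYC on, a difference of 1.74 on the log2 scale (exact p = 0.1). Rad51b was thus the more abundant per length in every MYC on library and Rad51c in every MYC off library. In MYC on the ratios were close to 1, and the order there rests on the gene lengths used. In CPM, which are not scaled by length, Rad51c had 13.3, 11.1 and 13.5 in MYC on and Rad51b 12.8, 11.0 and 11.8. The MYC intermediate ratios lay between, at 2.25, 2.40 and 1.96. Rad51c to Xrcc3 was 0.401, 0.362 and 0.351 in MYC off, against 0.146, 0.120 and 0.132 in MYC on (1.49 on the log2 scale, exact p = 0.1).

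Mus81 to Eme1 was 0.624, 0.699 and 0.667 in MYC off, against 0.371, 0.462 and 0.394 in MYC on (0.70 on the log2 scale, exact p = 0.1). Eme1 stayed the more abundant of the pair per length in all 9 libraries. Fanci to Fancd2 was 3.13, 3.10 and 3.15 in MYC off, against 2.71, 2.38 and 2.36 in MYC on (0.33 on the log2 scale, exact p = 0.1), and Brca1 to Bard1 differed by 0.28 with the same p. The pairs Rad51d and Xrcc2, Rmi1 and Rmi2, Nbn and Rad50, Brca2 and Palb2, and Atr and Chek1 had exact p-values of 0.5 or more, with TPM ratios of Rad51d to Xrcc2 of 1.34, 1.22 and 1.18 in MYC off and 1.21, 1.15 and 1.39 in MYC on. The remaining 5 pairs (Atr and Atrip, Mre11a and Rad50, Atm and Chek2, Fanca and Fancg, Blm and Top3a) had exact p-values of 0.2 or 0.3.

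**Figure D4:**
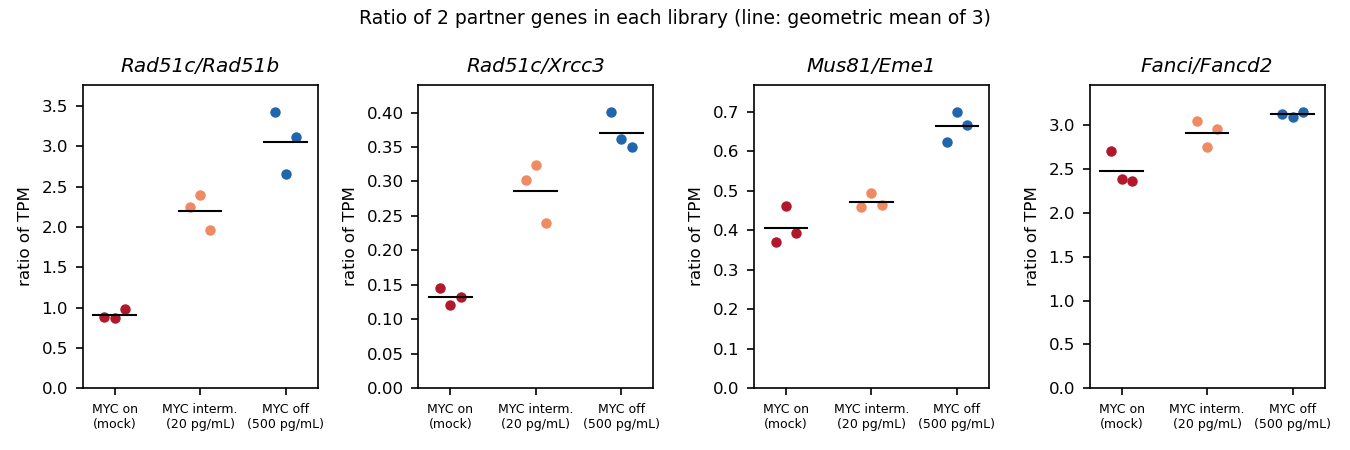
Ratio of the TPM of 4 partner pairs (y axis, from 0) in each library, with MYC on, MYC intermediate and MYC off from left to right and a line for the geometric mean of 3. The Rad51c to Rad51b ratio is under 1 in all 3 MYC on libraries and between 2.65 and 3.42 in MYC off.

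Levels between genes were compared per length. The median gene of the 46 had 39.2 TPM in MYC off, against 36.9 TPM in MYC on. Rad9a was highest at 334.9 TPM in MYC off and 288.3 TPM in MYC on, and Atrip lowest at 0.563 TPM in MYC off and 0.509 TPM in MYC on. Of the 46 genes, 41 had at least 10 TPM in MYC off and 42 in MYC on. Rad51c ranked 34 of 46 in MYC off and 44 of 46 in MYC on, whereas Eme1 ranked 3 in MYC off and 2 in MYC on.

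Of 62 tested genes from a longer list of recombination and Fanconi genes, 20 were higher and 12 lower in MYC off than in MYC on. Over all genes tested the shares were 27.5% and 27.4%. The list had a median log2 fold change of 0.03. In MYC intermediate, 14 of its genes were higher and 4 lower than in MYC on, against 17.4% and 17.2% of all genes tested. No list was tested against these shares. The meiotic recombination gene Mnd1 fell by 1.28 on the log2 scale. The histone gene H2afx, whose protein is phosphorylated at breaks, rose, with means of 525 CPM in MYC off and 234.7 CPM in MYC on. Pkmyt1, a mitosis-blocking kinase related to WEE1, rose by 0.90, and Rif1, which opposes end resection, fell by 0.82. Of 15 tested genes of end joining, the route that seals breaks without a template, 7 were higher and 2 lower in MYC off. The shares over all genes tested were again 27.5% and 27.4%. Polm rose by 1.60, Lig4 by 1.12 and Paxx by 1.00, and the Ku subunit gene Xrcc5 fell by 1.07.

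Cell cycle marker genes moved between the same groups. Over all genes tested, 27.5% were higher and 27.4% lower in MYC off, and 17.4% and 17.2% in MYC intermediate, than in MYC on. Of 51 markers of G2 and mitosis, 43 were higher and 1 lower in MYC off than in MYC on, with a median log2 fold change of 0.59, and their summed level was 23500 to 24270 CPM in MYC off, against 15900 to 16630 CPM in MYC on. Cenpf rose by 1.08 and Mki67 by 0.94. Of 35 S phase markers, 12 were higher and 7 lower, with a median of 0.01, and their summed level was 18500 to 19710 CPM in MYC off, against 16970 to 17460 CPM in MYC on. Rrm2 rose by 1.18 and Ung fell by 1.25. The S phase markers were highest at the middle dose, where they summed to 20320 to 21490 CPM, with 18 of 35 higher and 1 lower than in MYC on. The summed level of the 46 genes was highest there too, at 3717 to 3922 CPM. The part of the cell cycle markers in the results was not tested.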

How the data were processed

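The authors deposited 1 table per library with raw counts and TPM per gene for 53380 rows. Per the submitters' processing notes, reads were handled with STAR 2.5.4b, cutadapt 1.16 and featureCounts on mm10, while the annotation and the strand setting are not given in the sources used here. The deposited counts were tested, and the deposited TPM (scaled by length, without a depth) served for levels and ratios between genes. RNA was primed with oligo(dT), so RNA without a poly(A) tail is under-represented. GENCODE M21 gave symbols to 53274 IDs and the positions. FPKM, score and rank columns were not used.

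Counts were fitted with edgeR 4.0.16 in R 4.3.3 (quasi-likelihood F test, TMM scaling, default count filter, all 9 libraries in 1 fit, group as the only term), with two-sided p-values adjusted by Benjamini-Hochberg over 14098 genes and calls at an adjusted p under 0.01. The standard error of a log2 fold change is its size over the square root of F. On simulated data, the same scripts recovered most known changes of 0.5 and 1 on the log2 scale in genes of at least 5 CPM. The simulation took its spread from MYC on alone and changed far fewer genes than were called here. Recovery of smaller changes, the size of many calls here, was not measured. The genes and lists were chosen with earlier results of these data known. Library values were given for up to 4 called genes per role with the largest change and at least 5 CPM, and for genes past 1 on the log2 scale in any contrast; other library values were added after they were seen. Alternatives were DESeq2 1.42.0, other scalings and filters, a replicate block, a fit of the 6 libraries compared, and each library left out.

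Replicate numbers were checked for pairing over 9944 genes. Deviations from the group means of same-numbered MYC off and MYC on libraries correlated at r = 0.392, 0.269 and 0.232. Each MYC off library correlated best with the MYC on library of its own number. MYC intermediate and MYC on gave 0.135, -0.192 and -0.17, and MYC off and MYC intermediate gave 0.376, 0.0297 and 0.0853. In both of these comparisons only replicate 1 correlated best with its own number. The labels do not state a pairing, so whether the numbers pair the libraries is not known. The main fit left the numbers out, and the replicate block was an alternative.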

Additional observations from a re-analysis of the deposited data

How the results depend on the processing

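Between MYC off and MYC on, 20 of the 22 called genes were called under all 16 alternatives, and no called gene changed sign. Fancm and Rad50 were the exceptions. Fancm was lost with RLE size factors, with no count filter and with the 6 libraries alone, and Rad50 with library size as the only scaling. Brca1 and Rad9a were gained under 5 alternatives each and Nbn under 1. The median log2 fold change of the 46 genes was -0.05 with DESeq2, RLE size factors or no count filter, 0.00 with library size as the only scaling and -0.06 with the 6 libraries alone, and without any 1 library it ran from -0.05 to -0.02.

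Between MYC intermediate and MYC on, 7 of 15 calls held throughout (Rad51c, Brip1, Rad51ap1, Fanci, Atr, Rad52 and Rad1). Single libraries ended the calls of Fancf, Fancg, Fancl, Fancm, Mre11a, Rad51b, Rad54b and Xrcc3, and left 5 to 9 genes higher and 3 to 5 lower. Library size as the only scaling also ended those of Fancm and Rad54b, and RLE size factors that of Fancm. The 6 libraries alone ended those of Fancm, Mre11a and Xrcc3, and no count filter that of Mre11a. Between MYC off and MYC intermediate, 4 of 8 held (Chek1, Exo1, Mus81 and Slx4), and Fanca, Fancf, Nbn and Wee1 did not. Besides single libraries, RLE size factors ended the call of Fancf. Library size as the only scaling ended those of Fancf and Wee1, and the 6 libraries alone that of Fanca. Some alternatives added calls, of Atm, Blm, Fanca, Rad9a and Rmi2 for MYC intermediate against MYC on and of Fancl, Rad1, Rmi1 and Rmi2 for MYC off against MYC intermediate. With library size as the only scaling, 3 genes were lower there, with a median of -0.01, and with no count filter the median was -0.08. Without any 1 library, 2 to 7 of the 46 genes were lower there with a median from -0.08 to -0.03, and 852 to 1330 of all genes were higher. Against the midpoint, DESeq2 called 2 of the 46 higher and 2 lower (389 and 99 of all genes), and no count filter gave 3 and 1 (695 and 155 of all genes). Without any 1 library, 0 to 1 of the 46 genes and 113 to 322 of all genes were higher, and 6 to 64 of all genes were lower than the midpoint. The replicate block gave 73 of all genes lower, and beyond Brca1 and Fanca it changed no call of the 46 genes. The cause of these shifts was not tested.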
